A study of Homo sapiens with 12 samples.

Results

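Integrins are cell-surface receptors in which an alpha and a beta subunit, each encoded by its own gene, pair into a heterodimer. They bind extracellular matrix proteins such as collagen, laminin and fibronectin outside the cell and connect through adaptors such as talin and kindlin to the actin cytoskeleton inside it. In pancreatic ductal cells they hold the epithelium on its basement membrane, and in carcinoma cells they carry adhesion, migration and signaling through FAK and Src. The set described here is the 10 subunit genes ITGA2, ITGA3, ITGA5, ITGA6, ITGAV, ITGB1, ITGB3, ITGB4, ITGB5 and ITGB8, chosen by gene name from the 20212 genes of the count table. They matched 11 of its entries, because a gene that overlaps ITGB3 also carries that name.

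The cells were PANC-1, an established line from a human pancreatic ductal carcinoma, treated for 60 min with 50 nM rapamycin, an inhibitor of the mTORC1 kinase complex that promotes mRNA translation, or with its vehicle DMSO. There were 3 cultures per treatment, and from each came one library of ribosome footprints (RF, the mRNA fragments that ribosomes protect from nuclease) and one of total RNA, 12 libraries in all. All cultures came from the same cell line and shared 1 dose and 1 time, and nothing in the labels says whether they were grown separately, so that p-values measure the spread between these cultures. The comparison asks whether brief mTORC1 inhibition changed the transcript level, the footprints or the translation efficiency (TE, footprints relative to total RNA) of each subunit.

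The RF libraries held 278835 to 1574723 counts on genes and the total RNA libraries 78081241 to 94293744, so footprints set the precision. The limit that a count of 0 sets, 3 counts, corresponds to 2.05 to 9.80 CPM (counts scaled to library size) in RF and at most 0.0378 CPM in total RNA, and covers counting error only. The spread between cultures, as a biological coefficient of variation, was 54.9% in RF and 5.31% in total RNA. The ductal keratins KRT8, KRT18 and KRT19 had mean FPKM (fragments scaled to transcript length and library size) of 1718, 1565 and 1378 in total RNA, while KRT7, EPCAM and CDH1 were at 10.9, 4.82 and 7.46. The 4 acinar, 4 fibroblast and 2 measured endothelial markers had summed FPKM of at most 0.295, 1.81 and 0.183 in any culture. Of the leukocyte markers, PTPRC was at 0.0853 and CD3E at 0.0192 FPKM, and CD68, a lysosomal protein that is not limited to leukocytes, was at 78.7.

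The members lie on 7 chromosomes (GRCh37). The collagen receptor subunit ITGA2 is at chr5:52285170-52390609 on the plus strand. The laminin receptor subunits ITGA3 (chr17:48133332-48167845) and ITGA6 (chr2:173292082-173371187) are also on the plus strand. The fibronectin receptor subunit ITGA5 is at chr12:54789045-54813050 on the minus strand. ITGAV, which binds RGD-containing ligands such as vitronectin, is at chr2:187454737-187545628 on the plus strand. ITGB1, the common partner of many alpha subunits, is at chr10:33176201-33294720 on the minus strand. Among the partners of ITGAV, ITGB3 (chr17:45331193-45391109) and ITGB8 (chr7:20370325-20455377) are on the plus strand and ITGB5 (chr3:124480795-124620265) on the minus strand. ITGB4, the hemidesmosome subunit that pairs with ITGA6, is at chr17:73717408-73753899 on the plus strand.

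mRNAs whose translation is most sensitive to rapamycin often carry a TOP motif, a C at the very first transcribed base followed by an uninterrupted run of pyrimidines. The RefSeq promoter table (GRCh38.p14) held start sites for ITGA2, ITGA5, ITGA6, ITGAV, ITGB1, ITGB5 and ITGB8, 12 windows in all. The 6 windows whose start is also the first base of the leading transcript of the gene in these cells are shown because a TOP motif would have to begin there. Lower case marks the 10 bases before the annotated start, and capitals mark the 20 bases from the start onward, 5′ to 3′ on the strand of the gene.
ITGA2 (chr5:52989342-52989371, plus): cgggcgggggAGAGAAGCCCTCTGGACAGC
ITGA5 (chr12:54419247-54419276, minus): gcgttgagtcATTCGCCTCTGGGAGGTTTA
ITGAV (chr2:186590046-186590075, plus): tcaccccggcAGTCCCCAGCCTCAGACGCT
ITGB1 (chr10:32958211-32958240, minus): gggaggccccGCCAGCCCGCGGGAGAGGCC
ITGB5 (chr3:124887346-124887375, minus): ggccaggggcAGAGTGTGCCGGCGCGCGGG
ITGB8 (chr7:20330890-20330919, plus): tgtgcaccccAGAGCGCGCCAGCAACTCGG
None of these 6 starts is a C, and none of the 12 windows had a C followed by 4 pyrimidines at the annotated start, read on the strand of the gene. Over all 35116 windows of the table, 14.69% began with C and 4.07% had C followed by 4 pyrimidines. The absence of these letters at an annotated start says nothing on the start that PANC-1 cells use.

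In total RNA, the subunits spanned a wide range, with ITGB1 and ITGA3 at the top and ITGB3 and ITGB8 at the bottom. ITGB1 was at 464, 479 and 504 FPKM in the DMSO cultures and at 497, 437 and 512 FPKM in the rapamycin cultures. Its mean over the 6 cultures, 482 FPKM, was 39.0% of the summed FPKM of the 10 genes and lay above 99.0% of the genes tested. No other member reached the ITGB1 level in any culture. In bulk RNA such as this, fewer cells with a transcript and less of it per cell cannot be told apart.

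ITGA3 was next, at 239, 254 and 243 FPKM in DMSO and 254, 259 and 251 in rapamycin, or 20.2% of the sum. ITGAV, at 148, 140 and 138 FPKM in DMSO and 144, 137 and 142 in rapamycin, overlapped ITGB5, at 156, 131 and 122 in DMSO and 124, 134 and 120 in rapamycin. These 2 were the only neighbors in the order whose ranges over the 6 cultures overlapped. Below them came ITGA2 at 92.1 to 95.7 FPKM, ITGA5 at 59.7 to 65.6 and ITGA6 at 47.8 to 53.0. ITGB4 ranged from 15.7 to 19.1 FPKM, below every value of ITGA6, the alpha subunit it pairs with. The place of ITGB5 depended on the scaling to transcript length. In total RNA CPM, without that scaling, its DMSO mean was 273, below ITGA2 at 773 and ITGAV at 983. The ITGB5 transcript of highest FPKM was at 36.7, 42.1 and 41.3 in DMSO, below that of ITGA2 at 63.6, 64.3 and 62.5.

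The lowest members were ITGB3, a beta subunit that pairs with ITGAV, and ITGB8, which with ITGAV binds latent TGF-beta. ITGB3 was at 3.58, 3.37 and 3.14 FPKM in DMSO and 3.58, 3.86 and 3.44 in rapamycin. ITGB8 was at 1.84, 1.85 and 2.32 FPKM in DMSO and 1.92, 2.18 and 1.98 in rapamycin. Both were lower than ITGB5 in every culture, so that ITGB5 was the most abundant transcript of the 3 beta subunits that pair with ITGAV but not with the other alpha subunits of the set.

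**Figure D1:**
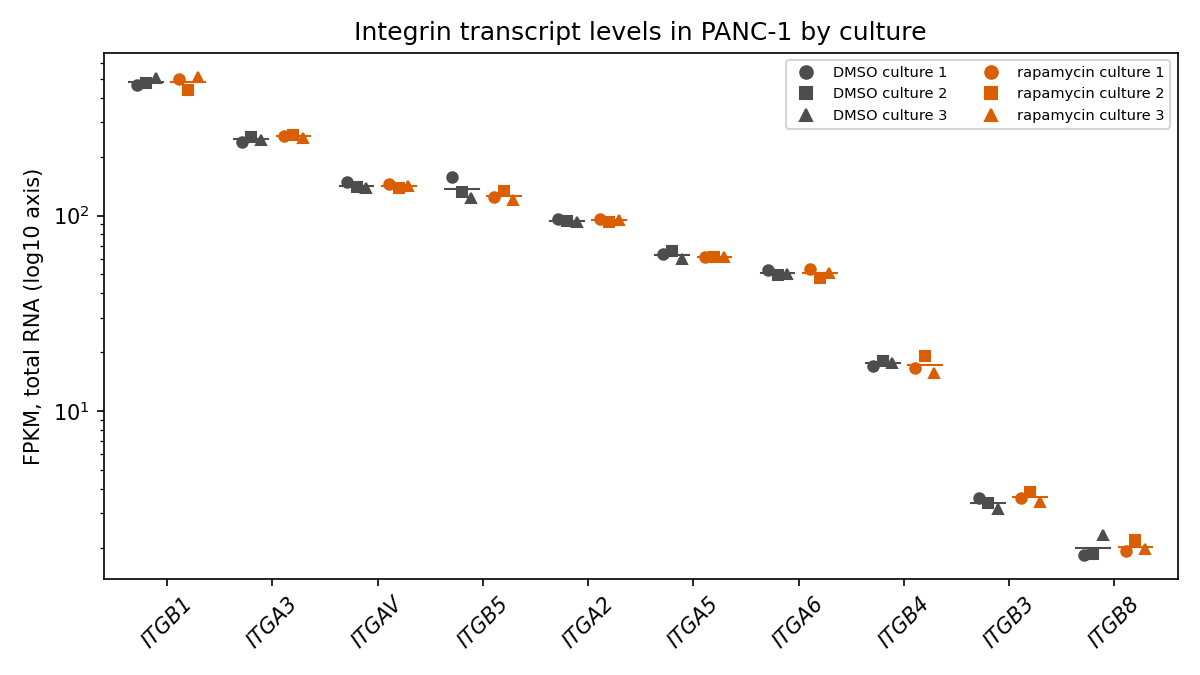
FPKM in total RNA (log10 axis) for the 10 integrin genes, ordered by their mean over 6 cultures. Each point is a culture and each line the mean of 3 cultures of a treatment; ITGB1 stood highest at 437 to 512 FPKM and ITGB8 lowest at 1.84 to 2.32, and the DMSO and rapamycin points lay over each other for every gene.

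Footprints, scaled to library size and to the kilobases of merged coding sequence of each gene, gave a similar order with a wider spread. ITGB1 had RF counts of 327, 679 and 1712 in the DMSO cultures and 1145, 666 and 234 in the rapamycin cultures, which rise and fall with the size of the library. As CPM per kb coding these were 355, 305 and 419 in DMSO and 343, 291 and 274 in rapamycin, 42.6% of the sum over the 10 genes. ITGB1 was again above every other member in every culture.

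ITGA3 (89.7 to 163 RF CPM per kb), ITGA2 (70.2 to 115) and ITGAV (76.3 to 122) followed, and each overlapped its neighbor in the order. In the 3 DMSO cultures ITGA2 varied little, at 112, 114 and 114 RF CPM per kb, and in rapamycin it was at 115, 87.2 and 70.2. ITGA3 had the same shape, with 140, 145 and 149 in DMSO and 163, 140 and 89.7 in rapamycin. For both genes the lowest value was that of rapamycin culture 3, the smallest RF library, while rapamycin culture 1 lay above all DMSO cultures.

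ITGA5, ITGB5, ITGA6 and ITGB4 formed a lower group whose neighbors overlapped, with means of 35.0, 34.3, 23.9 and 12.6 RF CPM per kb. ITGA5 was at 37.5, 32.2 and 24.5 in DMSO and 25.7, 39.0 and 50.9 in rapamycin. ITGA6 was at 13.8, 31.5 and 25.8 in DMSO and 39.4, 21.6 and 11.2 in rapamycin. The lowest ITGA6 values therefore came from the smallest RF library of each treatment, with 16 counts in DMSO culture 1 and 12 in rapamycin culture 3, and the highest ITGA5 values of each treatment came from these same libraries. Without these 2 cultures, a setting chosen after seeing the data, the log2 change in RF was 0.09 for ITGA6 and 0.18 for ITGA5.

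For ITGB8 the RF counts were 1, 2 and 7 with DMSO and 8, 4 and 1 with rapamycin. For ITGB3 they were 3, 0 and 3 with DMSO, and there were none in the 3 rapamycin cultures, where a count of 0 allows 2.51, 3.65 and 9.80 CPM, against 9.08, 0 and 2.05 CPM in DMSO. A difference in ITGB3 footprints was therefore not detectable at this depth, and with 6 RF counts in all it fell below the minimum of 10 for the tests. The overlapping entry under the same name, a readthrough gene at chr17:45331263-45421658 that shares exons with ITGB3, had 3, 6 and 0 with DMSO and 0, 4 and 1 with rapamycin. Reads on the shared exons cannot be assigned to one of the 2 genes, so both are uncertain. Its change in TE was −0.81 on the log2 scale (SE 1.27, adjusted p = 0.832 by edgeR's quasi-likelihood test).

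**Figure D2:**
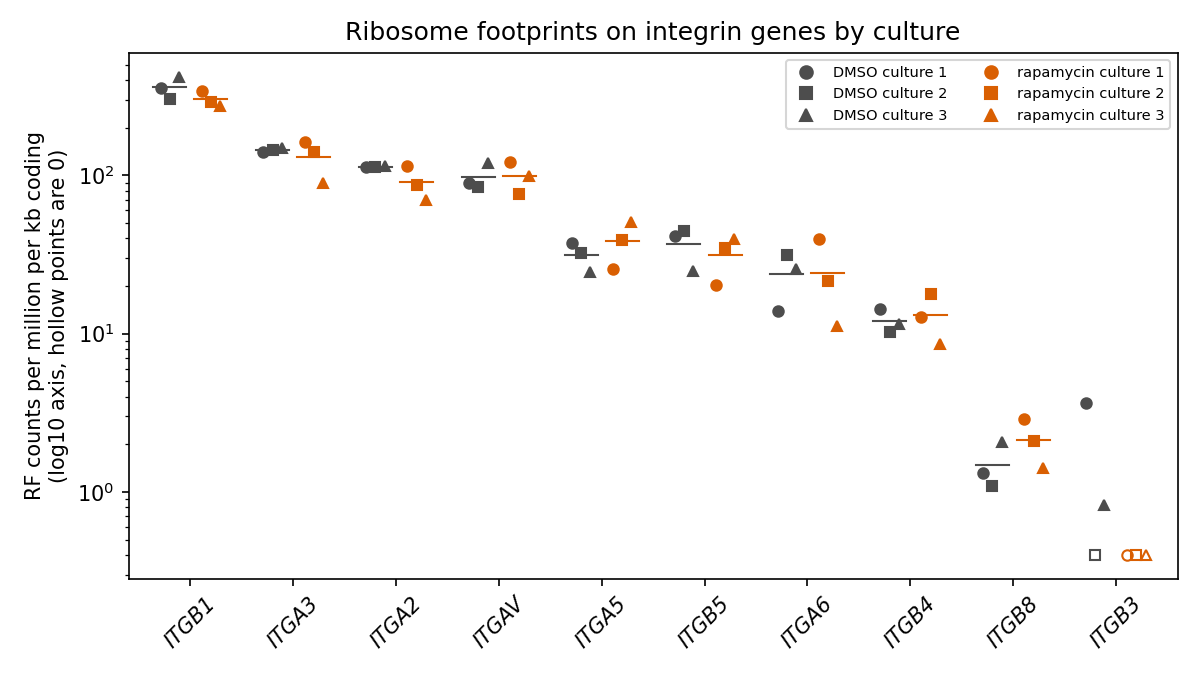
Ribosome footprints as CPM per kb of merged coding sequence (log10 axis) for the 10 integrin genes, ordered by their mean. Each point is a culture, each line the mean of 3 cultures, and hollow points at the bottom are 0; ITGB1 was highest at 274 to 419, and ITGB3 had footprints in only 2 cultures, both DMSO.

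No integrin passed the test of a change with rapamycin. Of the 9 members with enough counts to be tested among 13329 genes, 0 passed an adjusted p of 0.05 (quasi-likelihood test of edgeR, adjusted by Benjamini-Hochberg) in TE, in RF or in total RNA. Over all genes tested, 0% were called in TE, 0% in RF and 0% in total RNA, with smallest adjusted p of 0.180, 0.0509 and 0.766. At an unadjusted p of 0.05, 0 of the 9 integrins passed in TE, RF or total RNA, where 12.6%, 3.68% and 5.82% of all genes did. The DMSO and rapamycin cultures overlapped for all 9 in each of the 3 measures, whereas they did not overlap for 10.8% of all genes in TE, 9.39% in RF and 17.3% in total RNA. DESeq2 also called 0 integrins.

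The 95% intervals say how large a change these data leave room for. In total RNA all 9 intervals lay within a 2-fold change in either direction, and most were far narrower. The ITGB1 transcript level differed by −1.71% (95% interval −6.68% to 3.52%) and that of ITGA3 by 2.37% (−2.51% to 7.50%). The widest intervals in total RNA were those of ITGB4, 6.41% (−3.36% to 17.2%), and ITGB8, 3.92% (−6.74% to 15.8%). As the median of the 9, the log2 change in total RNA was 0.01, beside 0.01 over all genes tested.

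In RF alone, 6 of the 9 intervals lay within 2-fold, and the exceptions were ITGA5, ITGB5 and ITGB8. The footprints of ITGB1 differed by −0.25 on the log2 scale (SE 0.20, 95% interval −0.68 to 0.17) and those of ITGA2 by −0.32 (SE 0.23, −0.81 to 0.17). ITGA5 was at 0.29 (SE 0.34, −0.44 to 1.01), and ITGB8, with 23 RF counts in all, at 0.51 (SE 1.18, −1.99 to 3.01). The adjusted p was 0.9999 for each of the 9, and 4 had negative and 5 positive values. Their median was 0.01, beside 0.02 over all genes.

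In TE, 8 of the 9 intervals lay within 2-fold, all but that of ITGB8. ITGA2, at −0.34 on the log2 scale (SE 0.20, 95% interval −0.75 to 0.08, adjusted p = 0.5), had the smallest p of the set (unadjusted p = 0.108 in edgeR). Without rapamycin culture 1 it was −0.54 in TE (unadjusted p = 0.00676, adjusted p = 0.401 in edgeR) and −0.54 in RF (unadjusted p = 0.0463, adjusted p = 1 in edgeR), and the Wald test of DESeq2 on all cultures gave −0.30 in TE (unadjusted p = 0.0494, adjusted p = 0.228). ITGB1 was at −0.23 (SE 0.17, −0.59 to 0.13, adjusted p = 0.607) and ITGA3 at −0.17 (SE 0.21, −0.63 to 0.29, adjusted p = 0.786). For these 3 subunits, which had the highest footprint levels, a 2-fold fall in TE lies outside the interval, while the point estimates were 20.7%, 14.6% and 11.2% below DMSO. For ITGAV, next in that order, the value was −0.00062 (SE 0.23, −0.49 to 0.49, adjusted p = 0.999).

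The remaining TE values had intervals on both sides of 0. ITGB5 was at −0.25 (−0.97 to 0.47), ITGA6 at 0.07 (−0.81 to 0.95), ITGB4 at 0.10 (−0.59 to 0.80), ITGA5 at 0.29 (−0.35 to 0.93) and ITGB8 at 0.48 (−1.02 to 1.97). In all, 5 values were negative and 4 positive, and the median, −0.00062, stood beside −0.06 over all genes, of which 53.7% were negative. The joint model took 1 spread for both kinds of library, a coefficient of variation of 24.4%, which is below that of RF alone, and the RF intervals were wider than the TE intervals for each of the 9.

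**Figure D3:**
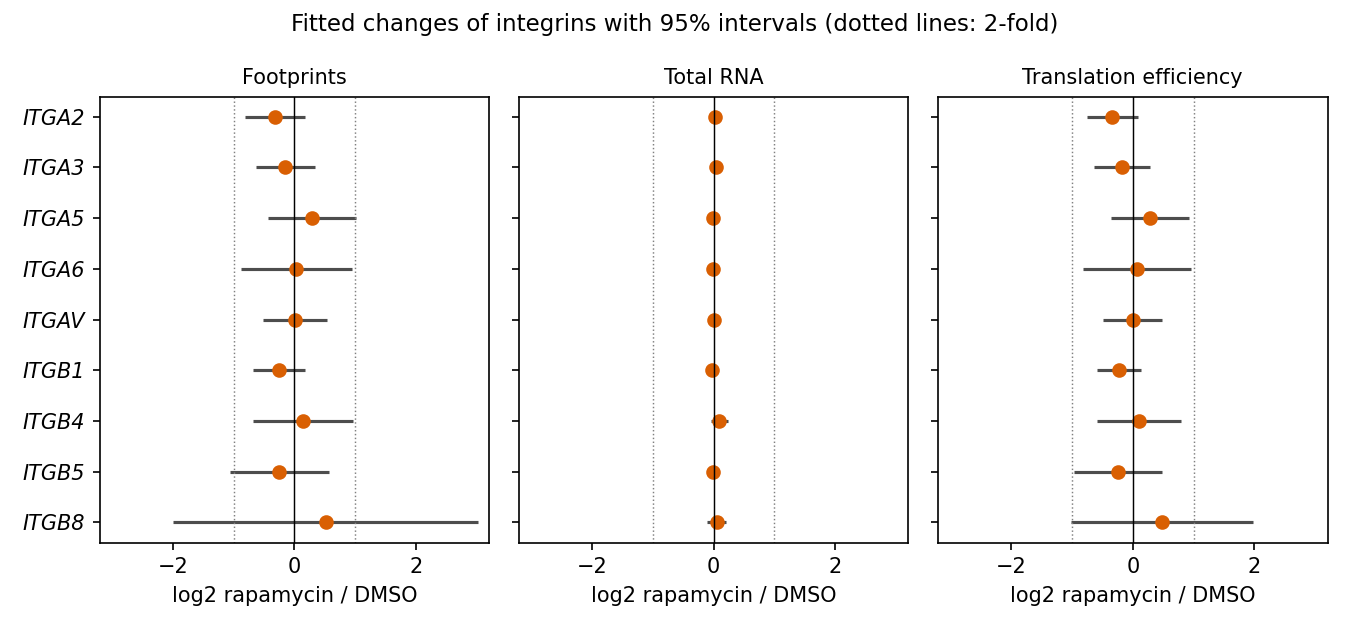
Fitted log2 change, rapamycin over DMSO, in footprints, total RNA and translation efficiency for the 9 integrins tested. Points are estimates from edgeR, horizontal lines 95% intervals and dotted lines a 2-fold change; every interval included 0, and those of total RNA were the narrowest.

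Per culture, log2 TE was taken as the log2 RF CPM minus the log2 total RNA CPM, with a prior count of 2. ITGA2 was at −0.96, −0.93 and −0.88 in DMSO and at −0.92, −1.28 and −1.61 in rapamycin. Rapamycin culture 1 lay within the DMSO range and the other two below it. The difference between the means was −0.35 (two-sided exact permutation p = 0.3, adjusted p = 0.9 over the 9 genes), and the smallest p that 3 cultures against 3 allow is 0.1. ITGB1 was at −0.90, −1.11 and −0.65 in DMSO and −0.94, −1.06 and −1.24 in rapamycin, with a difference of −0.19 (exact permutation p = 0.4, adjusted p = 0.9).

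Among the laminin receptor subunits, ITGA3 was at −1.38, −1.38 and −1.27 in DMSO and −1.20, −1.42 and −2.02 in rapamycin. ITGA6 was at −2.59, −1.38 and −1.67 in DMSO and −1.13, −1.80 and −2.85 in rapamycin, the widest spread of the 8 genes with at least 100 RF counts. ITGB4 was at −0.20, −0.79 and −0.55 in DMSO and −0.46, −0.14 and −0.95 in rapamycin. In each of these genes rapamycin culture 3 was the lowest of all 6 cultures and another rapamycin culture was the highest.

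In the fibronectin and vitronectin receptor subunits the low cultures were others. ITGA5 was at −1.51, −1.76 and −2.03 in DMSO and −1.99, −1.39 and −1.03 in rapamycin. ITGAV was at −1.81, −1.79 and −1.30 in DMSO and −1.34, −1.89 and −1.61 in rapamycin. ITGB5 was at −1.40, −1.31 and −2.04 in DMSO and −2.36, −1.56 and −1.42 in rapamycin. The lowest value of ITGA5 came from DMSO culture 3, that of ITGAV from rapamycin culture 2 and that of ITGB5 from rapamycin culture 1, so no culture was low for all subunits.

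Compared with genes of enough footprints, the integrins were mostly below the median gene in TE already in DMSO. Among the 6131 genes with at least 100 RF counts, whose median log2 TE in DMSO was −0.56, 8 were integrins, and 7 of these lay below the median. ITGA6 (mean −1.88 ± 0.63, SD, n = 3) was above 10.4% of these genes, ITGA5 (−1.77 ± 0.26) above 12.7%, ITGAV (−1.64 ± 0.29) above 15.6% and ITGB5 (−1.58 ± 0.40) above 16.8%. ITGA3 (−1.35 ± 0.06) was above 23.6%, ITGA2 (−0.92 ± 0.04) above 37.3% and ITGB1 (−0.88 ± 0.23) above 38.8%. ITGB4 was the exception, at −0.52 ± 0.30 and above 51.9%.

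This measure divides counts on whole exons, so a long untranslated part adds total RNA but few footprints. The merged exons were 5.97 times as long as the merged coding sequence in ITGAV and 5.22 times in ITGB1, but 1.18 times in ITGB4. When footprints were taken per kb coding and divided by FPKM, again 7 of the 8 lay below the median gene (6022 of the 6131 genes had both values). The exception was then ITGA2, above 56.6% of genes, while ITGB4 was above 30.8%, ITGAV above 30.9%, ITGB1 above 34.5% and ITGB5 above 7.17%. The ITGB5 value divides by an FPKM that was high relative to the CPM of that gene. The place of ITGA2 and ITGB4 thus depended on how length was treated, while ITGA3, ITGA5, ITGA6, ITGAV, ITGB1 and ITGB5 were below the median by both measures. This is a description of levels, without a test.

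**Figure D4:**
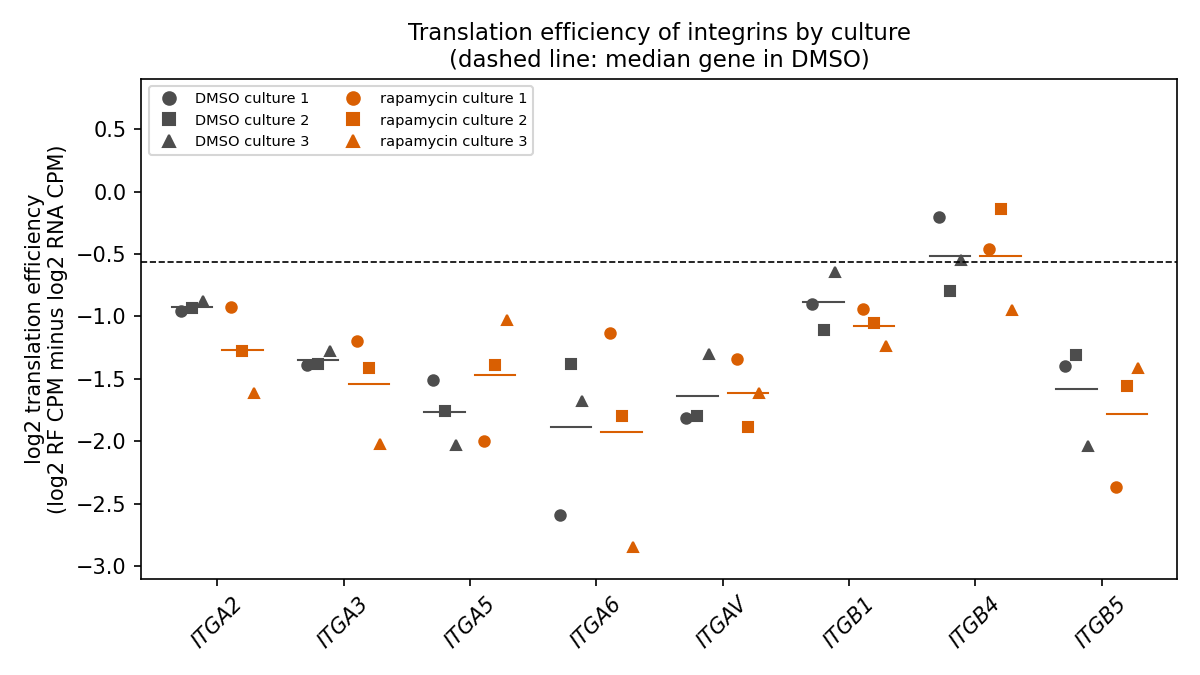
log2 TE (log2 RF CPM minus log2 total RNA CPM) by culture for the 8 integrins with at least 100 RF counts. Each point is a culture and each solid line the mean of 3, and the dashed line at −0.56 is the median of 6131 genes in DMSO; all points but those of ITGB4, which lay on both sides, were below it.

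Because the subunits pair, the ratio of alpha to beta subunits within a library does not depend on its size. The summed footprints per kb coding of the 5 alpha subunits were 0.944 to 1.23 times those of the 5 beta subunits. On the log2 scale the ratio was −0.08, 0.18 and −0.08 in the DMSO cultures and 0.30, 0.08 and −0.01 in the rapamycin cultures. The difference was 0.12 (two-sided exact permutation p = 0.5, adjusted p = 0.75 over 3 ratios), and the treatments overlapped. In total RNA the same ratio of summed FPKM was 0.897 to 1.

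The 5 alpha subunits together had 1.03 to 1.36 times the footprints per kb of ITGB1, and the log2 difference between the treatments was 0.13 (exact permutation p = 0.4, adjusted p = 0.75). ITGA6 and ITGB4, which form the laminin receptor of hemidesmosomes, varied more, from 0.968 to 3.10 times. Their log2 ratio was −0.05, 1.61 and 1.15 in DMSO and 1.63, 0.27 and 0.39 in rapamycin, a difference of −0.14 (exact permutation p = 1). The DMSO value near 0 came from culture 1, the one with 16 ITGA6 counts and 27 ITGB4 counts.

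The total RNA libraries also gave FPKM for each transcript, and the leading transcript of a subunit was the one with the highest mean. A single transcript dominated ITGB3 (95.05% ± 1.88 of the summed isoform FPKM in DMSO, SD, n = 3), ITGA5 (79.0% ± 1.30), ITGA3 (77.4% ± 1.57), ITGB8 (75.8% ± 8.13), ITGB1 (73.3% ± 3.05) and ITGA2 (67.5% ± 0.98). ITGAV had 2 protein-coding transcripts of 3144 and 3006 coding bases, at 59.8% ± 2.19 and 29.1% ± 1.69. ITGA6 was split most evenly, between a transcript of 3174 coding bases at 49.7% ± 5.09 and one of 3273 coding bases at 39.3% ± 6.93. ITGB4 led with 48.2% ± 4.26 and ITGB5 with 29.7% ± 5.51, the latter over 5 transcripts that each held more than 10% of the sum. On normalized isoform counts, which are not scaled to transcript length, the ITGB5 leading transcript held a mean of 71.5% in DMSO and 74.1% in rapamycin.

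With rapamycin, the leading shares differed from DMSO by −2.70 to 3.09 percentage points. The ITGA6 leading transcript held 55.0%, 49.1% and 44.9% in DMSO and 49.7%, 49.8% and 55.3% in rapamycin (exact permutation p = 0.5, adjusted p = 0.714 over 10 genes). Among the leading transcripts, only that of ITGA3 had cultures that did not overlap. It held 79.1%, 76.0% and 77.1% in DMSO and 75.9%, 75.6% and 75.8% in rapamycin (exact permutation p = 0.1, the smallest possible, adjusted p = 0.5). Taken over the normalized isoform counts in place of FPKM, that difference was −0.24 percentage points, and that of the ITGB4 leading transcript was −6.14 (64.1% to 58.0%), against −0.87 on FPKM. For the other genes the differences on normalized counts were between −1.61 and 2.60. The second transcript of ITGA2, annotated as subject to nonsense-mediated decay, held 15.3%, 17.5% and 16.0% in DMSO and 14.0%, 15.3% and 13.9% in rapamycin. No leading share passed an adjusted p of 0.05.

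**Figure D5:**
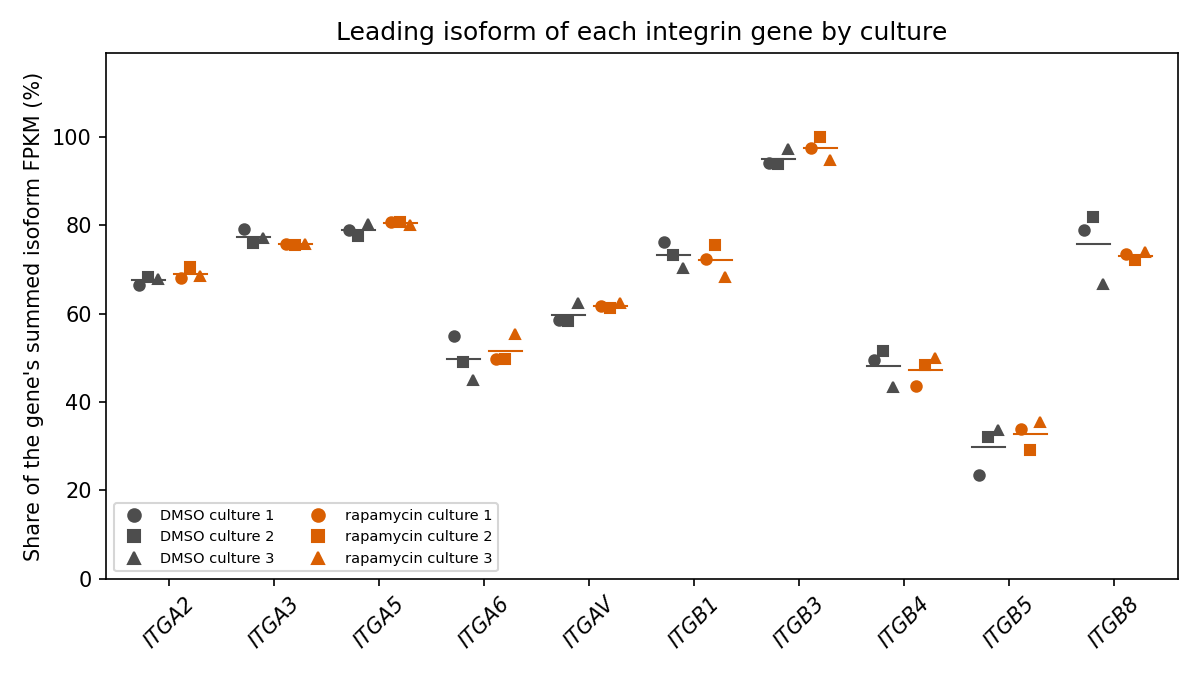
Share of the leading transcript in the summed isoform FPKM (%) for the 10 integrin genes. Each point is a culture and each line the mean of 3; shares ran from 23.5% for ITGB5 to 100% for ITGB3, and the treatments differed by at most 3.09 percentage points in their means.

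The footprints of the other integrins were compared with those of ITGB1 over the 6 RF libraries, as Pearson's r of log2 CPM. The value was 0.74 for ITGA2, 0.62 for ITGAV and 0.61 for ITGA3, and it was 0.33 for ITGA6 and 0.15 for ITGB4. It was −0.54 for ITGB5 and −0.79 for ITGA5, the fibronectin-binding partner of ITGB1. The 5 genes most like ITGB1, of 6130 with at least 100 RF counts, were TAF10 (r = 0.982), SHROOM2 (0.977), DNAJC8 (0.976), NAMPTL (0.975) and RAB1A (0.970). The points share libraries of unequal depth, so these values describe the 6 libraries.

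Of the 16 other integrin subunits, 14 had a mean FPKM under 1. ITGAE, the alpha subunit of an E-cadherin receptor of lymphocytes, was highest at 14.6 FPKM, and the leukocyte subunit ITGB2 was at 1.11. Of the 10 with enough counts, 0 passed in TE, RF or total RNA, adjusted or not. Their median log2 change in TE was −0.79, and in total RNA it was 0.44. Total RNA of DMSO cultures 1 and 2 had counts on 16840 and 16858 genes of the whole table, against 19751 to 19847 in the other cultures. Several of the low integrin genes likewise had fewer total RNA counts in these 2 cultures. ITGA4 had 5, 2 and 61 counts in DMSO and 44, 44 and 47 in rapamycin. ITGA9 had 2, 0 and 37 in DMSO and 27, 34 and 42 in rapamycin. The part of this difference in the medians of the 10 genes was not tested.

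Adaptors that connect integrins to actin, together with kinases and other adhesion proteins such as PTK2, SRC and CAV1, were represented by 33 genes. Of these, 32 were tested and 0 called. At an unadjusted p of 0.05, 1 was lower and 1 higher in TE. PARVA, which encodes alpha-parvin of the complex with ILK and PINCH, was at 1.64 (SE 0.52, unadjusted p = 0.00684, adjusted p = 0.241 in edgeR). Its RF counts were 3, 18 and 8 in DMSO and 58, 18 and 4 in rapamycin, so rapamycin culture 1 stood apart. In RF alone its unadjusted p was 0.134 in edgeR. TNS1, encoding tensin, was at −2.54 (SE 1.08, unadjusted p = 0.0344, adjusted p = 0.358), with total RNA counts of 7, 4 and 65 in DMSO and 79, 44 and 68 in rapamycin, again low in DMSO cultures 1 and 2. The median TE change of the 32 was −3.71e-05, beside −0.06 over all genes.

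Among 23 matrix ligands, 20 were tested, 0 were called, and the median TE change was −0.06. A single gene was under an unadjusted p of 0.05 in TE. This was COL4A2, a chain of basement membrane collagen, at −1.14 (SE 0.50, unadjusted p = 0.0394, adjusted p = 0.369 in edgeR). Its RF counts were few, at 7, 6 and 40 in DMSO and 8, 10 and 4 in rapamycin (unadjusted p = 0.328 in RF alone, edgeR). The 10 genes of hemidesmosomes, tetraspanins and other membrane proteins had 9 tested and 0 called, with a median of −0.01. Again a single gene was under an unadjusted p of 0.05. This was CD82, a tetraspanin, at 1.07 (SE 0.44, unadjusted p = 0.0274, adjusted p = 0.340 in edgeR). It too had few RF counts, 3, 9 and 10 in DMSO and 18, 16 and 6 in rapamycin (unadjusted p = 0.257 in RF alone, edgeR). Over all genes, 12.6% passed the unadjusted threshold in TE, and whether the shares of these small lists differ from it was not tested.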

How the data were processed

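Per the labels and the methods of the study, RF reads were quality-filtered, freed of linker and of ribosomal RNA, and kept from 15 nt upward. HISAT2 aligned RF and paired-end total RNA reads to GRCh37, and the authors deposited raw counts from featureCounts, which took unique alignments on exons of protein-coding genes. The authors deposited FPKM of genes and transcripts for total RNA, made with Cufflinks 2.2.1 cuffnorm. A normalized signal per transcript, the estimated fragment count over a size factor, was deposited too. The authors' own comparison columns hold RiboDiff output (the ratio of RF to RNA by treatment, its log2 fold change and p-values) and a column headed as FPKM that equals the mean DMSO total RNA count. None of these was used.

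Counts were tested in R 4.3.3 with edgeR 4.0.16. Library sizes were scaled by TMM within RF and within total RNA, and CPM, with the limits for a count of 0, are scaled in this way. Genes with at least 10 RF and at least 10 total RNA counts in all were tested. For TE, the robust quasi-likelihood test was of the library type by treatment interaction over all 12 libraries. Treatment was also tested in RF alone and in total RNA alone, with Benjamini-Hochberg adjustment over all genes tested. Log2 TE per culture, subunit ratios and transcript shares were compared by two-sided exact permutation tests. Gene models came from a GRCh37 annotation that may differ in version from that of the authors, and transcript shares cover the transcripts that both annotations list. Promoter windows came from RefSeq on GRCh38.p14. DESeq2 1.42.0, limma 3.58.1 on log2(FPKM + 1), other filters and scalings, blocks and leaving out cultures were the alternatives. The members and the gene lists were chosen with earlier results of these data known. All 10 integrins are named; of each other list, up to 3 genes per direction with the smallest unadjusted p under 0.05 in TE are named, and of genes like ITGB1 the 5 with the highest r. The other integrin subunits given by their counts, ITGAE and ITGB2, and the marker genes were added outside this rule. No 2 libraries of the same type and treatment agreed within sampling noise.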

Additional observations from a re-analysis of the deposited data

How the results depend on the processing

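Of 482 recomputed values, 427 were counted as the same, 53 as reversed in sign and 2 as moved. For the fitted change of a gene, the same meant an unchanged direction and side of the threshold. For the median TE change it meant a shift smaller than the spread between cultures, whatever the sign. The median was thus counted as the same at 0.0774 without DMSO culture 3, against −0.000621 in the main fit. No integrin was called in TE, RF or total RNA under any alternative run. ITGA2 passed an unadjusted p of 0.05 without rapamycin culture 1 in TE and RF and by DESeq2 in TE, and no other integrin did under any alternative.

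The labels do not say whether the same replicate numbers in the treatments mark pairs. The deviations of same-numbered libraries correlated at −0.118, −0.061 and −0.0744 in RF and −0.106, −0.121 and −0.217 in total RNA. Libraries of different numbers were not compared across treatments, so these values cannot decide whether cultures were paired. With the replicate block, 0 integrins were called in TE, RF and total RNA, the median TE change was −0.00605, that of ITGA6 was −0.00394, and in RF that of ITGA6 was −0.102 and of ITGAV −0.000964. With a culture block, which keeps the RF and total RNA library of a culture together, the median was −0.0252 and ITGA6 was at −0.0252.

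In TE, ITGAV was at 0.00253 with DESeq2 size factors, 0.0215 with genes of at least 1 count and 0.0104 with at least 100 RF counts, and ITGA6 at −0.00976 with TMM over all libraries. In total RNA, ITGAV was at −0.0108 with at least 1 count, and ITGA6 at 0.00781 and ITGB5 at 4e-04 with at least 100 RF counts. By limma on log2(FPKM + 1) and log2(FPKM + 0.1), ITGAV was at −0.00759 and −0.00764 and ITGB4 at −0.0371 and −0.0392. The ITGB1 transcript share differed by 0.0498 percentage points on normalized counts.

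Chosen after seeing the data, the fits without DMSO culture 1 and rapamycin culture 3, which had the smallest RF libraries, gave 0.0338 for ITGA3 and −0.0512 for ITGAV in RF. Total RNA of DMSO cultures 1 and 2 deviated together (r = 0.541), and without both the values were 0.238 for ITGB5 in TE, −0.045 for ITGA6, −0.26 for ITGAV and 0.314 for ITGB5 in RF, and 0.0363 for ITGA5, 0.0187 for ITGB5 and −0.059 for ITGB8 in total RNA, where the lone DMSO culture is assumed to vary like the others.

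Leaving out each culture in turn, the median TE change ranged from −0.178 (without rapamycin culture 1) to 0.0774 (without DMSO culture 3), and the log2 ratio of ITGA6 to ITGB4 differed by −0.62 to 0.21. The alpha to beta ratio differed by 0.0268 to 0.202. TE ranged from −0.543 to −0.207 for ITGA2, 0.0705 to 0.54 for ITGA5, −0.336 to −0.123 for ITGB1, 0.093 to 0.925 for ITGB8, −0.36 to 4.63e-05 for ITGA3, −0.468 to 0.323 for ITGA6, −0.178 to 0.17 for ITGAV, −0.108 to 0.24 for ITGB4 and −0.527 to 0.0449 for ITGB5. RF ranged from −0.344 to 0.0503 for ITGA3, −0.531 to 0.328 for ITGA6, −0.182 to 0.173 for ITGAV, −0.149 to 0.336 for ITGB4 and −0.497 to 0.00107 for ITGB5. Total RNA ranged from −0.0413 to 0.00197 for ITGA5, −0.0443 to 0.0378 for ITGA6, −0.021 to 0.0363 for ITGAV, −0.0493 to 0.00218 for ITGB1 and −0.00151 to 0.114 for ITGB8. The cause of these shifts was not tested. Depth limits ITGB3, with 6 RF counts, and ITGB8, with 23.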
